A study of Mus musculus with 3 samples.

Results

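Secretoglobins and other club cell products were followed across mouse lung cells through 5 genes, Scgb1a1, Scgb3a1, Scgb3a2, Bpifa1 and Cyp2f2, chosen by symbol among the 32285 genes of each single-cell library. Each gene had 1 row per library, and its unique molecular identifiers (UMIs, 1 per captured RNA molecule) were summed over kept cells, meaning barcodes with at least 1000 UMIs and 500 genes and at most 10% mitochondrial UMIs. There were 3 libraries, 1 per group, each pooled from 3 mice of 16 to 20 weeks on doxycycline chow at 625 ppm. The PPARg-/- tumour mice carried Ccsp-rtTA, a mutant EGFR transgene under TetO, floxed Pparγ alleles (Pparγ fl/fl) and Csf1rCre. The WT tumour mice carried the same alleles without Csf1rCre. The WT healthy mice carried Ccsp-rtTA and the TetO-EGFR transgene without floxed alleles. All 3 groups therefore shared the Ccsp-driven EGFR transgene, while Csf1rCre directs Cre to monocytes and macrophages, which express Csf1r. Equal amounts of 4 sorted populations (alveolar macrophages, CD11b+ macrophages, T cells and EPCAM+ epithelial cells) were mixed, and 235 of 4991, 383 of 4272 and 58 of 2881 classed cells of PPARg-/- tumour, WT tumour and WT healthy were epithelial.

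Club cells are secretory cells of the small airways. They release secretoglobins, small disulfide-linked proteins of the airway lining fluid, and they hold cytochrome P450 enzymes that oxidise inhaled chemicals. Scgb1a1 encodes the club cell secretory protein, also called CCSP, whose promoter drives the rtTA transgene of these mice. Scgb3a1 and Scgb3a2 encode further secretoglobins, Bpifa1 encodes SPLUNC1, an antimicrobial protein of airway fluid, and Cyp2f2 encodes the mouse P450 that activates naphthalene.

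The libraries held 44548318, 46148658 and 30454790 UMIs in PPARg-/- tumour, WT tumour and WT healthy, and 5137, 4374 and 2947 barcodes passed the filters. Scrublet marked 146, 102 and 66 of these as doublets, which were set apart. Pairs of libraries shared 15 kept barcodes in all, none of them in the club-like class described here. Pparg stood at 362 CPM (UMIs per 1000000 UMIs of the cells summed) in PPARg-/- tumour macrophages, 154 in WT tumour and 192 in WT healthy ones. Reads came from the 3′ end of transcripts, and which exons were floxed is not given in the sources used here, so this level does not check the deletion and the groups are called by their labels. Xist stood at 0.292, 0.169 and 1229 CPM and the Y-linked Ddx3y at 75.1, 81.5 and 0.127 CPM, so that the sex of the mice and the difference between WT tumour and WT healthy cannot be told apart. With 1 library per group no difference could be tested. Each interval in square brackets is an exact 95% interval that covers counting error only, and no value here measures the spread between mice.

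Promoters of 3 of the 5 genes are shown from the RefSeq promoter table for GRCm38.p6, 250 bases before to 50 after the annotated start. Those of Scgb1a1 and Scgb3a2 are not shown. The 3 genes shown had unlike patterns: nearly all Scgb3a1 UMIs of epithelial cells lay in 4 club-like cells, nearly all Bpifa1 UMIs in 1, and Cyp2f2 was spread over airway and alveolar cells. Capitals mark matches on either strand to the NKX2-1 core CAAGTG, to the FOX words TGTTTAC or TATTTAC or TGTTTGC, to the C/EBP word TTGCNNAA or to TATAAA, and no 2 matches overlap.
Scgb3a1, chr11:49663345-49663644, plus strand: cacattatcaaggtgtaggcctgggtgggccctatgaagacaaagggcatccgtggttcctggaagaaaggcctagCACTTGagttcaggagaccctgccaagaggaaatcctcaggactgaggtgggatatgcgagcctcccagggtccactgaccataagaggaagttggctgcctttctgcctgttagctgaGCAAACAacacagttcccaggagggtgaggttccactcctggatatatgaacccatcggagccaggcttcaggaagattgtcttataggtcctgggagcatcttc
Bpifa1, chr2:154142630-154142929, plus strand: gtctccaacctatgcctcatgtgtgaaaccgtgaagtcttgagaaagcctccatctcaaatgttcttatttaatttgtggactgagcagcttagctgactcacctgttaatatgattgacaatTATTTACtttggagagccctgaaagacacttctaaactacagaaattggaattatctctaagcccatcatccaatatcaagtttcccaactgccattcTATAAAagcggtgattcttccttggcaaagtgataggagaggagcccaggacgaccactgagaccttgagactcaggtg
Cyp2f2, chr7:27119705-27120004, plus strand: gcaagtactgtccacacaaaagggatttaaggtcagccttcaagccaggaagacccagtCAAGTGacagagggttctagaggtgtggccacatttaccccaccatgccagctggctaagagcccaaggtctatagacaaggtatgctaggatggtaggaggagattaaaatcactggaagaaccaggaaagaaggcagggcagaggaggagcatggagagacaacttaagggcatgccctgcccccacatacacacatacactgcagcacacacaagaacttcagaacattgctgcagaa
Scgb3a1 held the NKX2-1 core on the minus strand with its leftmost base at -174 from the start and a FOX word on the minus strand at -55. Bpifa1 held a FOX word at -127 and TATAAA at -29, both on the plus strand, and Cyp2f2 held the NKX2-1 core on the plus strand at -191. None of the 3 held TTGCNNAA. Of all 32851 promoters in the table, 13.6% held the NKX2-1 core, 11.2% a FOX word, 10.8% TTGCNNAA and 13.6% TATAAA, and a match describes letters, not binding.

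Most UMIs of the 5 genes lay in kept cells in PPARg-/- tumour, and for 4 of the 5 in WT tumour, but not in WT healthy. Scgb1a1 had 122605, 75804 and 67271 UMIs in PPARg-/- tumour, WT tumour and WT healthy, or 2752, 1643 and 2209 CPM of the whole library. Kept cells, marked doublets included, held 79.5%, 69.2% and 9.79% of them. Barcodes of 10 to 100 UMIs, taken as free RNA from broken cells, held 9.11%, 15.2% and 59.9%. For Scgb3a2 the free RNA barcodes held 14.6%, 16.9% and 64% of its UMIs. The WT healthy library thus contained Scgb1a1 RNA at a level between those of both tumour libraries, most of it outside kept cells. Bpifa1 had 7680, 350 and 6 UMIs in PPARg-/- tumour, WT tumour and WT healthy, Scgb3a1 had 1862, 2487 and 152, and Cyp2f2 had 2499, 3187 and 1225.

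**Figure D1:**
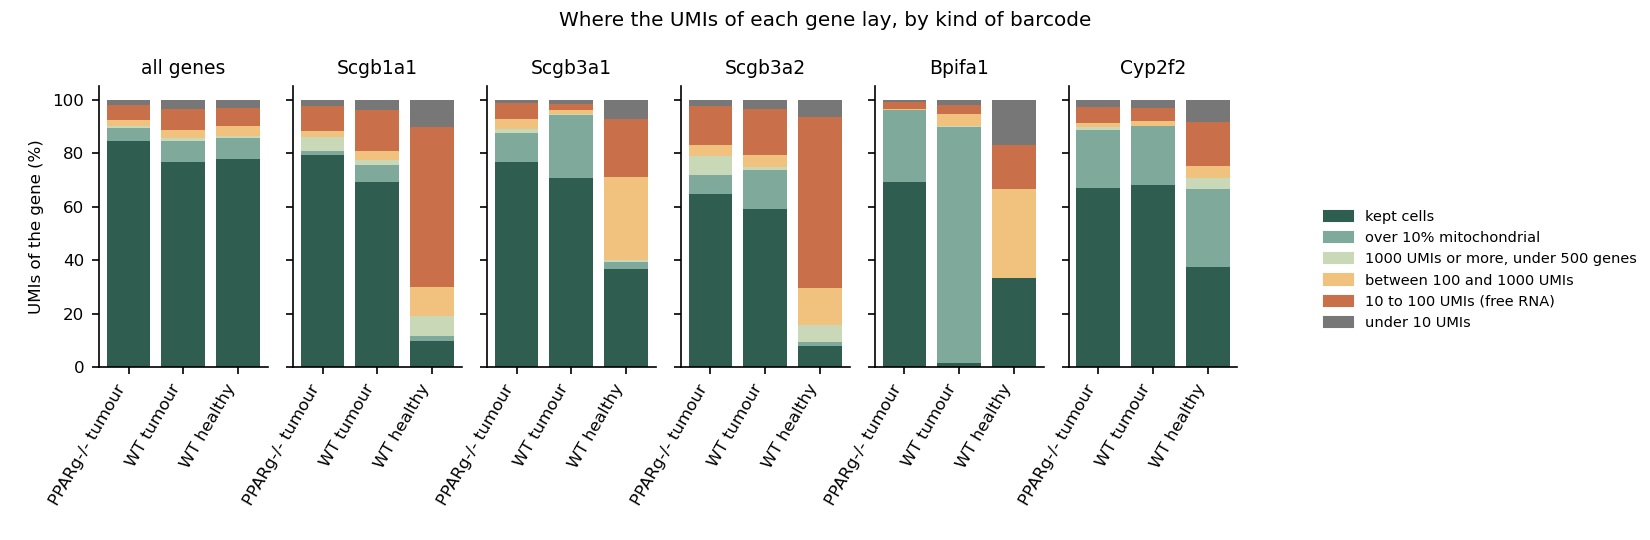
Percent of the UMIs of all genes and of each of the 5 genes (vertical axis) by kind of barcode, with 1 bar per library. Kept cells held 79.5%, 69.2% and 9.79% of Scgb1a1 UMIs in PPARg-/- tumour, WT tumour and WT healthy, and the Bpifa1 bar of WT healthy rests on 6 UMIs.

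Kept cells fell into classes by markers that did not include the 5 genes, which were also left out of the clustering. The club-like class held 15 cells, 5 of 235 epithelial cells in PPARg-/- tumour (2.13% [0.694 to 4.9]), 10 of 383 in WT tumour (2.61% [1.26 to 4.75]) and 0 of 58 in WT healthy, which allows a share of up to 5.17% (taken as 3 cells). With marked doublets kept the class held 7, 17 and 1 cells, with a mitochondrial limit of 5% it held 5, 14 and 1, and with one of 20% it held 7, 13 and 1. Of 15 club cell markers, 14 were raised in it, among them Cbr2, a carbonyl reductase found in all 15 cells, and Muc5b, a gel-forming mucin. The 5 genes made up 58% of all UMIs of the club-like cells in PPARg-/- tumour and 55.4% in WT tumour. They made up 21%, 0.287% and 0.698% in ciliated-like cells of PPARg-/- tumour, WT tumour and WT healthy, and 0.0492%, 0.0858% and 0.0372% in cells like the surfactant-secreting alveolar type 2 cells (AT2-like). WT healthy did hold 1 barcode rich in these genes among the marked doublets, with 3593 Scgb1a1 UMIs of 4646 in all and 568 genes, and 78.6% of its UMIs came from the 5 genes.

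The club-like cells were of 2 kinds by depth, a split made after the values were seen. In 5 cells with 16600 to 29616 UMIs, 2607 to 3733 genes were detected and 2.6% to 9.61% of UMIs were mitochondrial. In the other 10, with 1645 to 6706 UMIs, 520 to 1070 genes were detected and the median mitochondrial share was 0.108%, the highest 3.93%. Scgb1a1 took 24.7% to 68.6% of UMIs in the deep cells and 24.9% to 64.7% in the shallow ones, so these ranges overlapped. The 4 cells with Scgb3a1 were all deep, and Muc5b was found in all 5 deep cells and in none of the 10 shallow ones. The part of depth in these differences was not tested.

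**Figure D2:**
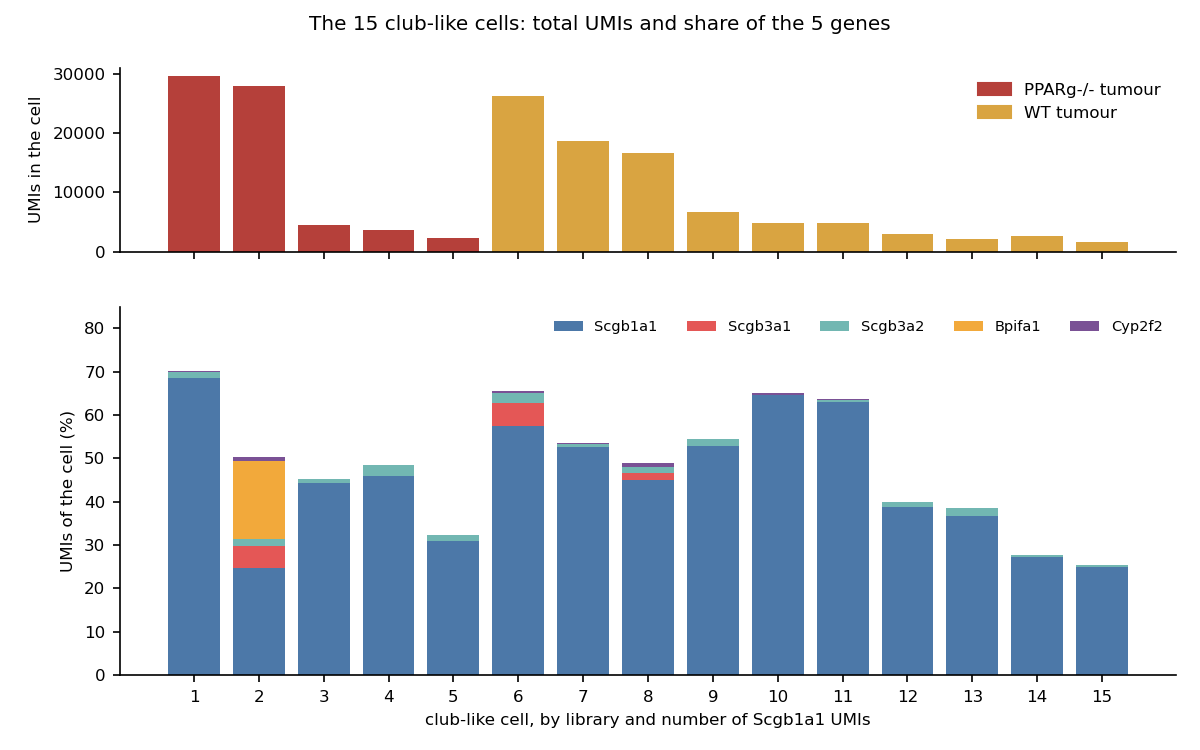
Each bar is 1 of the 15 club-like cells, 5 from PPARg-/- tumour on the left and 10 from WT tumour on the right, with total UMIs above and the percent of the UMIs of the cell from each of the 5 genes below. Scgb1a1 fills 24.7% to 68.6% of every cell, whereas Bpifa1 appears in 1 cell, where it fills 18%.

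Scgb1a1 had the most UMIs of the 5 genes in every club-like cell. The 5 cells of PPARg-/- tumour held 20329, 6915, 2004, 1647 and 732 UMIs of it. The 10 cells of WT tumour held between 409 and 15055, with a median of 3068. As a class level this was 464618 CPM [459511 to 469767] in PPARg-/- tumour and 516854 [512092 to 521650] in WT tumour, and the counts per cell of both libraries overlapped. The gene lies on chromosome 19 at 9083636 to 9087958 on the minus strand (GRCm38) and has 3 exons.

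Outside the club-like class, high Scgb1a1 levels rested on a few cells. Ciliated-like cells, which bear motile cilia and express the regulator Foxj1, stood at 204247 CPM in PPARg-/- tumour, 545 in WT tumour and 3318 in WT healthy. In PPARg-/- tumour 3 of 14 such cells held 17852, 16253 and 5677 UMIs and the other 11 held 1 to 32, or 1789 CPM. The 35 cells of WT tumour held 0 to 46 with a median of 2, and the 10 of WT healthy held 1 to 115 with a median of 25. The 3 high cells had 2, 20 and 4 UMIs of Foxj1 and 23, 71 and 15 of Ccdc153, another ciliated cell marker, beside 141, 329 and 229 of Cbr2. Cbr2 stood at 6291 CPM in them and at 5747 in the other 11, so its CPM did not set them apart. Its counts per cell did not overlap, at 141 to 329 UMIs and 13 to 100. Scgb1a1 filled 28% to 52.5% of the UMIs of the 3 high cells, which lowers every other CPM there. How many of the other club cell markers set these cells apart was not counted. In all the 3 high cells had 20298 to 56837 UMIs, against 4162 to 12838 in the other 11. With the 3 high cells left out, the Scgb1a1 range in PPARg-/- tumour lay within that of WT healthy and overlapped that of WT tumour. Scrublet did not mark these 3 barcodes, and whether each held a ciliated and a club cell together was not tested.

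The Krt7-high class, epithelial cells with raised keratins and claudin 4, was alike in this. It stood at 187343 CPM of Scgb1a1 in PPARg-/- tumour and 973 in WT tumour, with no cell in WT healthy. Of the 9 cells in PPARg-/- tumour, 1 held 21170 UMIs of Scgb1a1 in 39440, with 360 of Cbr2 and 267 of Cyp2f2, and the other 8 held 0 to 139. The 55 cells of WT tumour held 0 to 403. Besides 7 of 9 Krt7 markers, 10 AT2 and 9 AT1 markers were raised in this class, so its name stands for its leading keratin and not for a cell type.

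In AT2-like cells Scgb1a1 was low and below its level in free RNA. The level was 217 CPM [199 to 237] in PPARg-/- tumour, 654 [624 to 685] in WT tumour and 276 [213 to 351] in WT healthy, which is 4.72%, 20.5% and 1.39% of the level in free RNA of the same library. Of these cells, 1 of 160 in PPARg-/- tumour, 6 of 181 in WT tumour and 0 of 25 in WT healthy held 100 UMIs or more. The 6 cells of WT tumour held 123 to 523 UMIs of Scgb1a1 together with 753 to 5493 of Sftpc, the surfactant protein C gene. In AT1-like cells, the flat cells of gas exchange, Scgb1a1 had 7, 36 and 12 UMIs in PPARg-/- tumour, WT tumour and WT healthy, or 46.1, 63.2 and 485 CPM. These levels were 1%, 1.98% and 2.44% of free RNA, beside 4.38%, 2.08% and 0.722% in T cells.

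**Figure D3:**
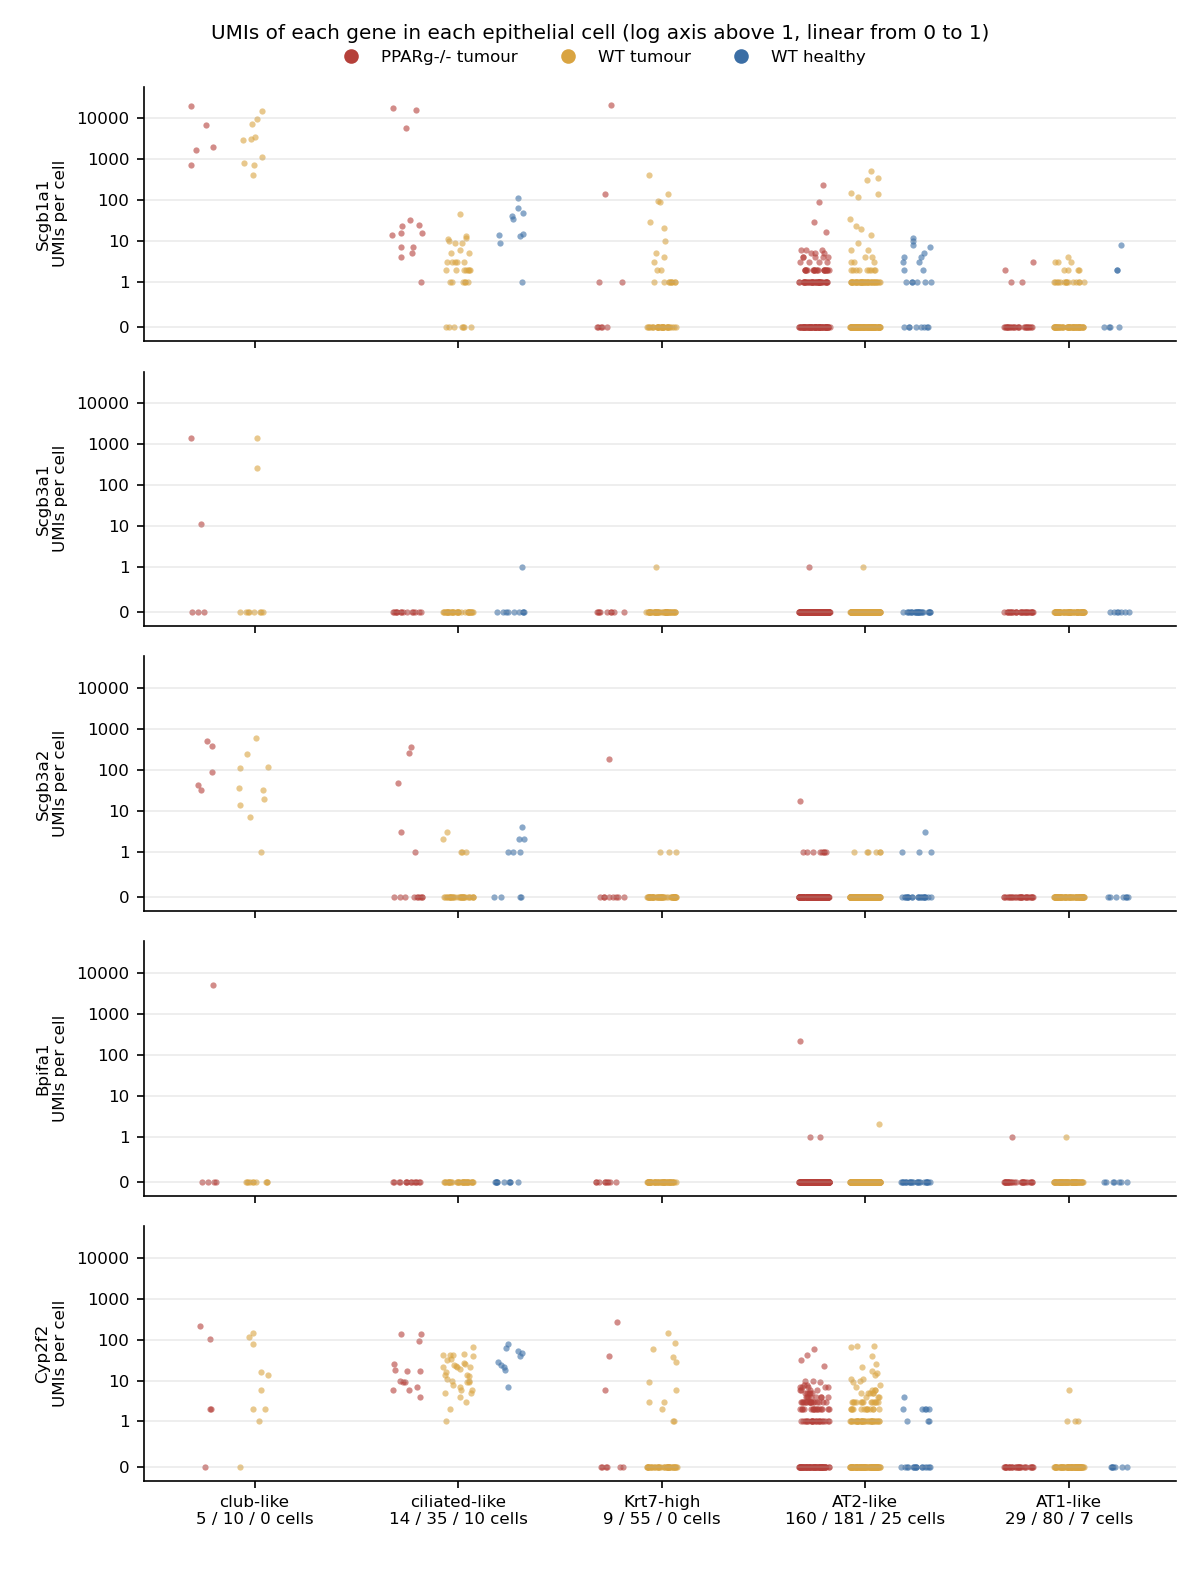
UMIs of each of the 5 genes in every cell of 5 epithelial classes (vertical axis, log above 1 and linear from 0 to 1), with PPARg-/- tumour, WT tumour and WT healthy from left to right within a class. All 15 club-like cells hold 409 Scgb1a1 UMIs or more, 3 ciliated-like and 1 Krt7-high cell of PPARg-/- tumour stand with them at 5677 or more, the highest AT2-like cell of WT tumour holds 523, and Cyp2f2 is found in every ciliated-like cell.

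Scgb3a2, which lies on chromosome 18 at 43764289 to 43767399 (plus strand, 3 exons), had a lower count than Scgb1a1 in every club-like cell. It was found in all 15 club-like cells, at 33 to 507 UMIs in the 5 of PPARg-/- tumour and 1 to 621 in the 10 of WT tumour. The class levels were 15557 CPM [14634 to 16523] in PPARg-/- tumour and 13929 [13156 to 14735] in WT tumour. The 3 ciliated-like cells high in Scgb1a1 held 254, 365 and 49 UMIs of Scgb3a2, and the other 11 of PPARg-/- tumour held 0 to 3. Ciliated-like cells of WT tumour and WT healthy stood at 27.1 and 103 CPM, which is 26.8% and 24.6% of free RNA. AT2-like cells had 25, 6 and 6 UMIs in PPARg-/- tumour, WT tumour and WT healthy, and AT1-like cells had none in any library. Of the 25, 17 lay in 1 cell that held 1 UMI of Scgb1a1. The 6 AT2-like cells of WT tumour with 123 to 523 Scgb1a1 UMIs held no Scgb3a2, so Scgb3a2 did not follow Scgb1a1 there.

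Scgb3a1 was found in 4 of the 15 club-like cells and almost nowhere else in the epithelium. In PPARg-/- tumour 2 of the 5 cells held 1393 and 11 UMIs, and in WT tumour 2 of the 10 held 1410 and 258. The class levels were 20626 CPM [19561 to 21733] and 19138 [18230 to 20079], each of which rests on those 2 cells. Ciliated-like, Krt7-high, AT2-like and AT1-like cells held 0 or 1 UMI per library, and the epithelial cells of mixed markers held 5 in WT tumour. The gene lies on chromosome 11 at 49663610 to 49665118 on the plus strand and has 3 exons.

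The 3 deep cells with 258 Scgb3a1 UMIs or more were set beside the other 2 deep club-like cells, with 11 and 0, a split chosen after the values were seen. Muc5b had 25 to 66 UMIs in these 3 cells and 2 to 6 in the other 2. Pigr, the receptor that carries IgA across the epithelium, had 15 to 35 and 3 to 3. Sult1d1, a sulfotransferase, had 2 to 35 UMIs and 0. Hp, haptoglobin, went the other way, with 16 to 66 and 72 to 106. Retnla, a small secreted protein, had 0 to 135 and 41 to 269, and Cbr2 had 55 to 94 and 76 to 102, so the ranges of Retnla and Cbr2 overlapped. These genes were picked from a longer list by their values, and the share of all genes without overlap was not taken. With 3 and 2 cells from 2 libraries these values describe single cells and no cell type.

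Among kept cells, Bpifa1 was concentrated in 1 cell. In PPARg-/- tumour all 5036 UMIs of the club-like class came from 1 of 5 cells, and in WT tumour the 10 cells held 0, which allows a level of up to 34.4 CPM (taken as 3 UMIs). These values depended on the filters and classes. Over the alternative settings the club-like level ran from 0 to 2587 CPM in WT tumour and from 0 to 175985 in PPARg-/- tumour. In WT tumour, 88% of all Bpifa1 UMIs lay in barcodes over the mitochondrial limit. The 1 cell of PPARg-/- tumour had 27987 UMIs, of which 6915 were Scgb1a1, 1393 Scgb3a1 and 507 Scgb3a2. It also held 263 of Reg3g, an antimicrobial lectin, 89 of Tff2, a trefoil factor, and 84 of Bpifb1, a relative of Bpifa1. AT2-like cells had 216, 2 and 0 UMIs in PPARg-/- tumour, WT tumour and WT healthy, and 214 of the 216 lay in 1 cell. The gene lies on chromosome 2 at 154142880 to 154149219 on the plus strand and has 9 exons.

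Cyp2f2 was found in club-like, ciliated-like, Krt7-high and AT2-like cells. It was found in 14 of 14, 35 of 35 and 10 of 10 ciliated-like cells of PPARg-/- tumour, WT tumour and WT healthy. The levels there were 2542 CPM [2323 to 2776], 2300 [2130 to 2480] and 3551 [3203 to 3927]. Without the 3 cells high in Scgb1a1, ciliated-like cells of PPARg-/- tumour stood at 1517 CPM, so the order of the tumour libraries rests on those cells. Club-like cells stood at 4833 CPM [4325 to 5385] in PPARg-/- tumour and 4371 [3943 to 4833] in WT tumour, with 80 to 222 UMIs in the 5 deep cells and 0 to 16 in the 10 shallow ones.

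AT2-like cells also held Cyp2f2, in 86 of 160 cells of PPARg-/- tumour, 87 of 181 of WT tumour and 9 of 25 of WT healthy. Their levels were 175 CPM [159 to 192], 201 [184 to 218] and 71 [41.4 to 114], which is 287%, 450% and 71.2% of free RNA. Thinned to 1000 UMIs per cell, 13.1%, 11% and 4% of AT2-like cells had a UMI, against 0.0617%, 0% and 0.216% of T cells. Among AT2-like cells with at least 10 Scgb1a1 UMIs, 4 in PPARg-/- tumour and 10 in WT tumour, Cyp2f2 stood at 2000 and 938 CPM, against 126 and 144 CPM in the rest, and the 2 such cells of WT healthy held none. Krt7-high cells stood at 2760 CPM in PPARg-/- tumour and 462 in WT tumour, where the 1 cell high in Scgb1a1 held 267 of the 314 UMIs of PPARg-/- tumour. AT1-like cells had 0, 9 and 0 UMIs. The gene lies on chromosome 7 at 27119909 to 27133660 on the plus strand and has 10 exons.

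Between libraries, a gene was called at 2-fold or more where both libraries together held 20 UMIs, a rule of size with no test. In AT2-like cells of PPARg-/- tumour over WT tumour, Scgb1a1 was lower by this rule (log2 ratio -1.59 [-1.73 to -1.45]). Bpifa1 (216 UMIs against 2, log2 6.94) and Scgb3a2 (25 against 6, log2 2.25) were higher, each through 1 cell, and without the cell with most UMIs neither was called. Cyp2f2 had a log2 ratio of -0.20, and Scgb3a1 was too low to be read. That is 3 of 4 genes read, beside 4.77% of the 10218 genes read in these cells. The Scgb1a1 call also rests on few cells: those with at least 10 UMIs, 4 in PPARg-/- tumour and 10 in WT tumour, held 378 of 524 and 1696 of 1798 UMIs. In the remaining 156 and 171 cells Scgb1a1 stood at 62.1 CPM in PPARg-/- tumour and 40 in WT tumour, the opposite direction. With each library clustered alone the log2 ratio was 4.56, but the 5 club-like cells of PPARg-/- tumour then fell among AT2-like cells.

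In AT2-like cells of WT tumour over WT healthy, Scgb1a1 (log2 1.25 [0.89 to 1.62]) and Cyp2f2 (log2 1.5 [0.81 to 2.29]) were higher, and the other 3 had too few UMIs. Of 9080 genes, 20.8% were called. Without the cell with most Scgb1a1 in each library, its log2 ratio was 0.98 and not called. Among cells with under 10 Scgb1a1 UMIs, 171 of 181 in WT tumour and 23 of 25 in WT healthy, the level was 40 CPM in WT tumour and 206 in WT healthy, so the direction was the opposite there. With a mitochondrial limit of 20% Cyp2f2 had a log2 ratio of 0.55 and was not called. In AT1-like cells of PPARg-/- tumour over WT tumour, Scgb1a1 was the only 1 of the 5 with enough UMIs and was not called (log2 -0.46, 7 UMIs against 36, and -1.08 without the highest cell of each library), beside 16.7% of 5336 genes called. All 8 surfactant genes read in AT1-like cells were called lower in PPARg-/- tumour, with a median log2 ratio of -3.73, and the part of AT2 RNA in this comparison was not tested.

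Free RNA gave 1 profile per library and did not depend on the classes. Scgb1a1 stood at 4601 CPM [4516 to 4687] in PPARg-/- tumour, 3195 [3137 to 3254] in WT tumour and 19897 [19703 to 20093] in WT healthy. Scgb3a2 stood at 191, 101 and 417 CPM and Cyp2f2 at 61, 44.6 and 99.8, so that all 3 were highest in WT healthy. Scgb3a1 stood at 45.3, 13.8 and 16.3 CPM and Bpifa1 at 89, 3.32 and 0.494, so that both were highest in PPARg-/- tumour. These levels depended on the window: with barcodes of 50 to 200 UMIs, Scgb3a1 stood at 48.4, 15.4 and 70.8 CPM and was highest in WT healthy, and Cyp2f2 stood at 43.5, 45.2 and 89.8. In that window Scgb1a1 stood at 12010 CPM and Scgb3a2 at 267 in WT healthy. In the window of 10 to 100 UMIs, Sftpc ran the other way from Scgb1a1, at 15800, 23475 and 3556 CPM.

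For PPARg-/- tumour over WT tumour, Scgb3a1 (log2 1.71) and Bpifa1 (log2 4.74) were called higher in free RNA, and Scgb1a1 (0.53), Scgb3a2 (0.92) and Cyp2f2 (0.45) were not called. This is 2 of 5, beside 10.2% of 11035 genes. For WT tumour over WT healthy, Scgb1a1 (log2 -2.64), Scgb3a2 (-2.05) and Cyp2f2 (-1.16) were called lower, Scgb3a1 (-0.24) was not, and Bpifa1 had 13 UMIs in all and was not read. With barcodes of 50 to 200 UMIs, Scgb3a1 was called lower (-2.20) and Cyp2f2 was not (-0.99), and Cyp2f2 in PPARg-/- over WT tumour had a log2 ratio of -0.06. As first given this is 3 of 4 read, beside 12.6% of 10951 genes, while all 9 surfactant genes were called higher with a median log2 ratio of 2.69. Both comparisons share the WT tumour library. The sort, the mixing and the loss of cells before droplets each bear on what RNA is free, and their part was not tested.

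**Figure D4:**
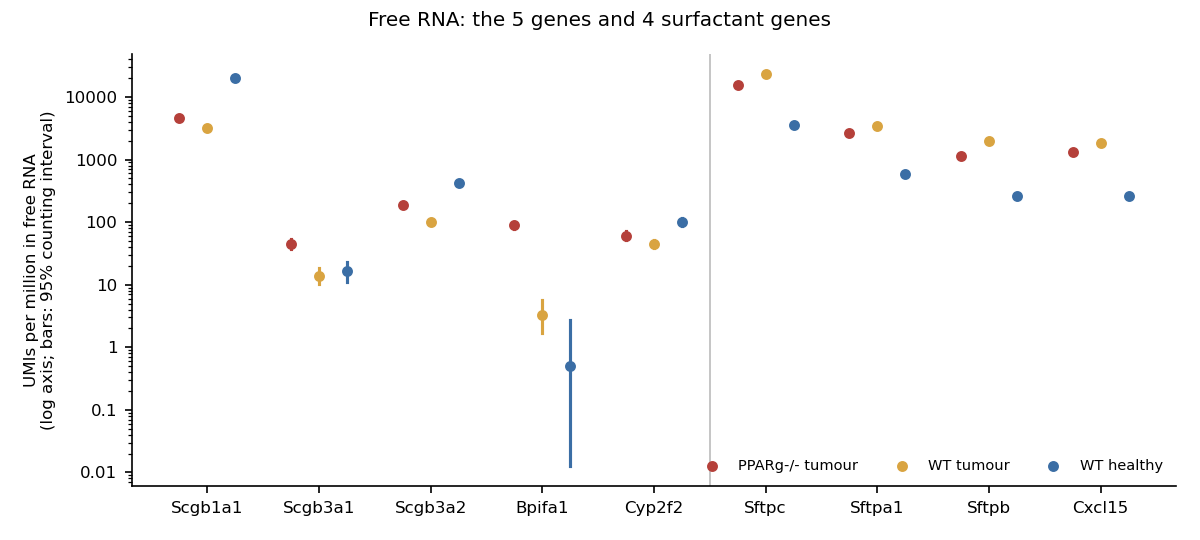
CPM in barcodes of 10 to 100 UMIs (log axis) for the 5 genes and 4 surfactant-list genes, 1 point per library with its 95% counting interval. Scgb1a1 stands at 19897 CPM in WT healthy, above 4601 in PPARg-/- tumour and 3195 in WT tumour, and Sftpc is in the opposite order with 3556 in WT healthy.

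Scgb1a1 was spread thinly over the free RNA barcodes. At least 1 UMI was found in 13.2%, 13.2% and 38.9% of them in PPARg-/- tumour, WT tumour and WT healthy. Barcodes with 10 UMIs or more of Scgb1a1 held 4.83%, 2.11% and 1.5% of its free RNA UMIs, so a few rich barcodes did not make the level. Between free RNA and kept cells lay barcodes with 1000 UMIs or more and fewer than 500 genes, in which Scgb1a1 stood at 23095, 2396 and 21734 CPM. In 8, 2 and 4 of these the 5 genes made up at least 10% of UMIs.

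Outside the epithelium, Scgb1a1 lay below 10% of its free RNA level in every named class. Scgb1a1 in T cells stood at 202, 66.3 and 144 CPM in PPARg-/- tumour, WT tumour and WT healthy, or 4.38%, 2.08% and 0.722% of free RNA. In macrophages it stood at 1.95%, 0.914% and 0.453%, in monocytes at 1.59%, 1.67% and 0.651% and in dendritic cells at 1.02%, 1.02% and 0.591%. Sftpc in T cells lay at 1.67%, 2.07% and 0.942% of its own free RNA level. In PPARg-/- tumour single cells held much of these counts, 570 of 924 UMIs in T cells and 1018 of 1919 in macrophages. Without those 2 cells the levels in PPARg-/- tumour were 1.68% in T cells and 0.917% in macrophages, and T cells of PPARg-/- tumour were then below the 2.04% of WT tumour. Each of those cells also held Scgb3a2, at 17 and 10 UMIs, and no Bpifa1.

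The share of T cells with a Scgb1a1 UMI was highest in WT healthy, as was the free RNA level. The share was 18.6% (301 of 1622), 17.9% (244 of 1365) and 38.2% (353 of 925) in PPARg-/- tumour, WT tumour and WT healthy. Once every cell was thinned to 1000 UMIs it was 7.71% [6.46 to 9.11], 6.67% [5.4 to 8.12] and 13.3% [11.2 to 15.7]. The intervals of the tumour libraries overlapped, so their order is not firm. Per 100 Scgb1a1 UMIs, free RNA of PPARg-/- tumour held 1.93 of Bpifa1 [1.68 to 2.21] and 4.16 of Scgb3a2 [3.78 to 4.56], whereas T cells held 2.06 [1.23 to 3.23] and 3.68 [2.53 to 5.18]. Without the cell of 570 Scgb1a1 UMIs, a value added after the data were seen, T cells held 5.37 of Bpifa1 [3.19 to 8.51] and 4.8 of Scgb3a2 [2.77 to 7.8], so the interval overlapped that of free RNA for Scgb3a2 but lay above it for Bpifa1. Macrophages without their highest cell held 2.77 of Bpifa1 [1.79 to 4.12], which overlapped free RNA, and 1.89 of Scgb3a2 [1.09 to 3.04], which lay below it. Endothelial cells without theirs held 0.855 of Bpifa1 [0.0215 to 4.86] and no Scgb3a2 [0 to 3.2]. The ratio was thus not that of free RNA in every class. The club-like cells of that library held 15.9 of Bpifa1 and 3.35 of Scgb3a2.

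**Figure D5:**
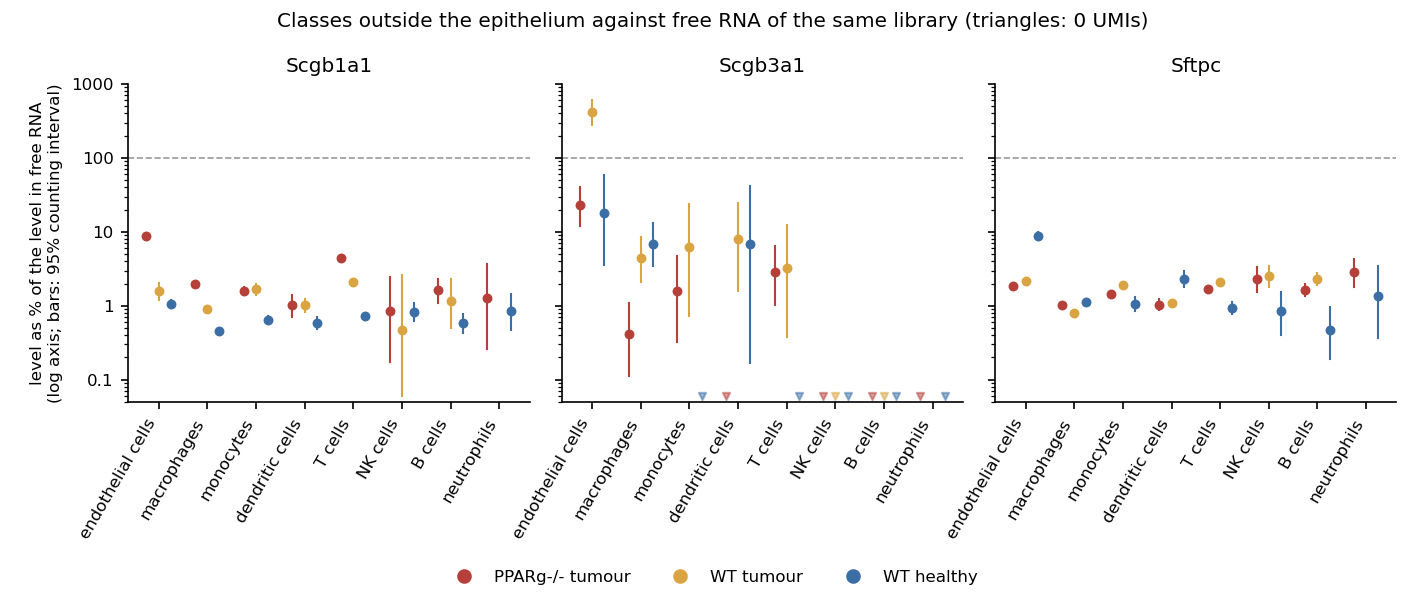
Level of Scgb1a1, Scgb3a1 and Sftpc in 8 classes outside the epithelium as a percent of the level in free RNA of the same library (log axis, 95% counting intervals, dashed line at 100%), for classes with at least 20 cells in the library. Scgb3a1 in endothelial cells of WT tumour stands at 413%, above the line, while every Scgb1a1 point lies below 10%.

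Scgb3a1 stood above free RNA in endothelial cells, the lining of blood vessels, of WT tumour. It had 14 UMIs in 12 of 385 cells in PPARg-/- tumour, 64 in 20 of 247 in WT tumour and 3 in 3 of 216 in WT healthy. The levels were 10.3, 57.1 and 2.97 CPM, which is 22.8% [12.1 to 39.9], 413% [281 to 610] and 18.2% [3.58 to 58.1] of free RNA. Scgb1a1 in the endothelial cells of these libraries lay at 8.72%, 1.59% and 1.06% of its own free RNA level. In PPARg-/- tumour it lay at 1.88% without its highest cell. Scgb3a1 thus stood above the percent of Scgb1a1 in all 3 libraries, though on 3 UMIs in WT healthy. No other class outside the epithelium stood above free RNA in any of the 5 genes, where at least 10 UMIs and an interval above 100% were asked for. Neutrophils of WT tumour, at 285%, rest on 2 UMIs in 18 cells. The highest endothelial cell held 2, 9 and 1 UMIs in PPARg-/- tumour, WT tumour and WT healthy. Per 100 Scgb1a1 UMIs, endothelial cells of WT tumour held 112 of Scgb3a1 [77.3 to 163], against 0.433 in free RNA of that library.

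The cells with Scgb3a1 carried endothelial markers, but they were drawn from a class named by such markers, so this was largely fixed in advance. In WT tumour, 20 of 20 held Pecam1 and 19 of 20 held Cdh5, both junction proteins of endothelial cells. Of the other 227 endothelial cells, 94.3% and 96.5% held them. The 1 endothelial cluster that held 19 of the 20 held 231 endothelial cells of WT tumour. Epcam, the epithelial adhesion molecule of the sort, was at 0 in the cells with Scgb3a1 of each library, and was found in 1.76% of the other 227 in WT tumour. Scgb1a1 had 8 UMIs in the 20 cells. In WT healthy, 1 barcode set apart as a doublet held 32 Scgb3a1 UMIs of 24798, with 20 of Pecam1, 17 of Cdh5, 31 of Cldn5 and 12 of Ptprc, the leukocyte marker CD45, and no Epcam.

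Between libraries, endothelial Scgb3a1 was called lower in PPARg-/- tumour over WT tumour (log2 -2.47) and higher in WT tumour over WT healthy (log2 4.26 [2.65 to 6.58]), in comparisons that share the WT tumour library. With the marked doublets kept the second ratio was 0.75, and with a mitochondrial limit of 20% it was 0.95, so this call was not kept under either setting. Scgb1a1 (log2 2.98) and Scgb3a2 (log2 2.05) were called higher in PPARg-/- tumour over WT tumour, where 1 cell held 427 of 544 UMIs of Scgb1a1 and all 20 of Scgb3a2, and neither was called without it. That is 3 of 3 genes read beside 5.18% of 9162 genes called. In WT tumour over WT healthy, Scgb1a1 was called lower (log2 -2.05), which with Scgb3a1 makes 2 of 2 read, beside 7.27% of 8787 genes.

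Of 40 other club and secretory products, 36 had at least 20 UMIs in epithelial cells, and 24 of these 36 were highest in club-like and 8 in ciliated-like cells. The list holds all 15 markers by which the club-like class was named, so part of this count was fixed in advance. The share of all genes highest in club-like cells was not taken. The 4 with most UMIs were Wfdc2, Cbr2, Lcn2 and Hp. Wfdc2, a protease inhibitor, stood at 3833 CPM in club-like, 2312 in ciliated-like and 2254 in AT2-like cells. Cbr2 stood at 3749, 6080 and 1817 CPM in the same classes. Lcn2, an iron-siderophore binding protein, stood at 64.4, 6.69 and 1276 CPM and was thus highest in AT2-like cells. Hp stood at 2944, 1324 and 280 CPM. The 5 genes fill 58% and 55.4% of club-like UMIs in PPARg-/- and WT tumour, which lowers every other CPM there. The order of club-like and ciliated-like cells for Cbr2, and the counts of 24 and 8, were not recomputed without the 5 genes.

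Between libraries this list divided both ways. In AT2-like cells of PPARg-/- tumour over WT tumour, 3 of 19 read were called higher (Cyp4b1, Gsta3, Slc16a11) and 5 lower (Gsto1, Hp, Muc4, Cxcl17, Retnla), with a median log2 ratio of 0.19 beside -0.12 over all genes, of which 4.77% were called. In WT tumour over WT healthy, 4 of 18 were higher (Gsta4, Muc4, Lcn2, Retnla) and 4 lower (Cyp2b10, Cbr2, Gstm1, Slc16a11), with a median of -0.44 beside 0.06, and 20.8% of all genes called. In free RNA of PPARg-/- tumour over WT tumour, 6 of 22 were higher (Cyp4b1, Gsta3, Fmo1, Fmo2, Ephx1, Slc16a11) and 1 lower (Retnla), with a median of 0.31 beside -0.09, and 10.2% of all genes called. In free RNA of WT tumour over WT healthy, 8 of 22 were higher (Aldh1a7, Gsta4, Ephx1, Wfdc2, Muc4, Lcn2, Cxcl17, Retnla) and 6 lower (Cyp4b1, Aldh1a1, Gsta3, Fmo1, Fmo2, Pigr), with a median of 0.11 beside -0.10, and 12.6% of all genes called.

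Of 24 lung epithelial transcription factors, 22 had at least 20 UMIs, and 2 of these were highest in club-like cells, Sox9 and Elf5. Sox9 was found in 1 club-like cell, and Elf5 stood at 51.5 CPM in club-like and 51.3 in AT2-like cells, so neither order is firm. All 9 surfactant genes were highest in AT2-like cells, but all 9 are among the markers that named that class. The 4 factors with most UMIs were Nkx2-1, Hes1, Etv5 and Nfib. Nkx2-1, the master regulator of lung epithelium, stood at 32.2 CPM in club-like, 105 in ciliated-like, 431 in Krt7-high, 386 in AT2-like and 414 in AT1-like cells, where the 5 genes fill 58% and 55.4% of the club-like UMIs in PPARg-/- and WT tumour and so lower every other CPM there. In AT2-like cells of PPARg-/- tumour over WT tumour, 1 of 20 factors read was called higher (Sox9) and 1 lower (Sox2), beside 4.77% of all genes called. In free RNA of WT tumour over WT healthy 11 of 18 were called higher and 0 lower (median log2 1.59), beside 12.6% of all genes called.

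The gene families were read by symbol. Of 34 symbols that start with Scgb, 4 had at least 20 UMIs in epithelial cells: the 3 secretoglobins described and Scgb1c1, with 133 UMIs, of which 99 lay in AT2-like cells. Of 14 that start with Bpif, 3 did: Bpifa1, Bpifb1, with 92 of its 96 UMIs in club-like cells, and Bpifb5, with 25 of 26 in AT2-like cells. Of 57 that start with Cyp2, 6 did: Cyp2f2 with 4034 UMIs, Cyp2s1 with 676, Cyp2b10 with 569, Cyp2a5 with 116, Cyp2j6 with 109 and Cyp20a1, of another family by name, with 107. Cyp2s1 was highest in ciliated-like cells (1047 CPM), as was Cyp2b10 (366 CPM), and Cyp2a5 was highest in club-like cells (374 CPM).

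Genes with a pattern most like each of the 5 were ranked by Pearson correlation of log2(CPM + 10) over 30 sums of a class and library with at least 20 cells, among 14594 genes, as a description with points that share libraries. Scgb1a1 was nearest to Plekhh1 (r = 0.764), Sgsm1 (0.747) and Atf5 (0.730), and Scgb3a1 to Igfbp3 (0.987), Gm16104 (0.969) and Cpe (0.958). Scgb3a2 was nearest to 6030443J06Rik (0.866), Bbs10 (0.787) and Tmem220 (0.786), and Bpifa1 to Dlk1 (0.891), Sec1 (0.813) and Serpind1 (0.741). Cyp2f2 was nearest to Arhgef19 (0.991), Rnf186 (0.987) and Ttc36 (0.983). Among these sums Scgb3a1 was highest at 57.1 CPM in endothelial cells of WT tumour, and next at 10.3 in those of PPARg-/- tumour. Of the 20 endothelial cells with Scgb3a1 in WT tumour, 2 held Igfbp3, 1 Gm16104 and 0 Cpe. Bpifa1 was highest at 89.5 CPM in AT2-like cells of PPARg-/- tumour, where 1 cell held 214 of its 216 UMIs. The correlations of these 2 genes thus rest largely on 1 sum each. No club-like sum has 20 cells, so the class with the highest level of all 5 genes in PPARg-/- tumour and of 4 in WT tumour did not enter these correlations.

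With sums of at least 5 cells, a setting added after the data were seen, the club-like cells of both tumour libraries entered and all 15 of these genes were replaced. Over those 40 sums Scgb1a1 was nearest to Scgb3a2 (0.956), Gabrp (0.919) and Cldn10 (0.896), and Scgb3a1 to Muc5b (0.964) and Tff2 (0.939). Scgb3a2 was nearest to Gabrp (0.967), Scgb1a1 and Cldn10 (0.944), and Bpifa1 to Reg3g (0.961), Fam83f (0.908) and Rad51b (0.906). Cyp2f2 was nearest to Gpx2 (0.980), Cxcl17 (0.957) and Gsta4 (0.951). The club-like sums hold 5 cells in PPARg-/- tumour and 10 in WT tumour. In them 1 cell of PPARg-/- tumour held all 5036 Bpifa1 UMIs beside 263 of Reg3g, and Scgb3a1 came from 2 cells of each library. These correlations thus also rest on few cells. Gabrp, Cldn10, Muc5b and Reg3g are among the markers by which the club-like class was named, so their rank was partly fixed in advance.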

How the data were processed

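Single-cell RNA was read in 3 libraries, 1 per group. The authors deposited raw UMI counts per gene and barcode with no cell filter, made per the submitters' processing notes with Cell Ranger 6.0.1 and Seurat 4.0.1 on mm10, although the file headers name Cell Ranger 4. The labels name an earlier kit than the list of 6794880 barcodes belongs to. All counts were whole numbers. How reads were aligned is otherwise not stated in the labels.

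Cells were filtered as stated, Scrublet (expected rate 6%, scanpy 1.11.5) was run per library, and Leiden clusters (resolution 1.0, 2000 variable genes, 30 components, 15 neighbours) were drawn over all libraries together, without the 5 genes, Pparg and sex-linked genes. Epithelial cells were clustered again. Markers were called raised when at least 10% of cells held them at 4 times the median cluster's level, or 2 times within the epithelium, thresholds set after the data were seen. The 5 genes and all lists were chosen with earlier results of these data known.

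Levels are summed UMIs in CPM with exact Poisson intervals, shares have exact Clopper-Pearson intervals and ratios the exact conditional interval. UMIs remove PCR copies, and these intervals cover counting error only. The ratio interval was tested on simulated data. Named genes were the 5, the 3 most alike to each, the 4 most abundant of each list and those a sentence counts, and family members with at least 20 UMIs. The single cells, and the genes set beside Scgb3a1 and Bpifa1 in them, were chosen after their values were seen. Of the genes most alike, 1 is not reported here. Gene positions are from GENCODE vM21 (GRCm38), promoters from RefSeq. Alternatives changed the filters, doublets, clustering, free RNA window, thinning and denominators.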

Additional observations from a re-analysis of the deposited data

Results flagged for a closer look

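Barcodes above the 10% mitochondrial limit were left out of every class level in the report. They nevertheless held several of the 5 genes above the level in WT healthy and above that of kept cells of the same library, and no explanation was tested. In PPARg-/- tumour, Scgb3a1 stood at 93.3 CPM in these barcodes (202 UMIs, 191 of them in 1 barcode), against 1.63 CPM in those of WT healthy. Bpifa1 stood at 953 CPM (2064 UMIs), against 0 in WT healthy, and 1401 of its UMIs lay in 1 barcode. Cyp2f2 stood at 249 CPM, against 146 in WT healthy. In WT tumour, Scgb3a1 stood at 165 CPM, with 580 of 588 UMIs in 1 barcode, and Bpifa1 at 86.4 CPM, with 307 of 308 UMIs in 1 barcode. Scgb3a2 stood at 89 CPM, against 7.75 in WT healthy, and Cyp2f2 at 198 CPM, against 146.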

How the results depend on the processing

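With 1 library per group, no replicate could be left out and no paired analysis was possible because each group is a single library with the same replicate number. Over 17 alternative settings, 1800 of 2104 recomputed values stayed on their side of the rule, within their counting interval or, for counts of genes, within 1.5 times. Without the cell with most UMIs of a gene, the counts of genes called were 0 higher in AT2-like cells and 0 higher in endothelial cells for PPARg-/- over WT tumour (both 2 as reported), 1 lower in AT1-like cells (0 as reported) and 1 higher in AT2-like cells for WT tumour over WT healthy (2 as reported). At a mitochondrial limit of 5%, 3 of the 5 genes were highest in club-like cells of PPARg-/- tumour (5 as reported) and 1 was higher in AT2-like cells there over WT tumour. At 20%, the counts higher were 0 in endothelial cells in both comparisons and 1 in AT2-like cells for WT tumour over WT healthy, and 2 pairs of class and library stood above free RNA (1 as reported). With marked doublets kept, 0 were higher in endothelial cells for WT tumour over WT healthy and 2 pairs of class and library stood above free RNA. With each library clustered alone no club-like class formed: the 5 cells of PPARg-/- tumour fell among AT2-like cells and the 10 of WT tumour among macrophages. Then Scgb1a1 in AT2-like cells of PPARg-/- over WT tumour reversed to a log2 ratio of 4.56, 5 genes were higher and 0 lower there, 2 were lower in AT1-like cells and 2 pairs of class and library stood above free RNA. The share of T cells with a Scgb1a1 UMI was 18.6%, 17.9% and 38.2% in PPARg-/- tumour, WT tumour and WT healthy without thinning, and 13.2%, 12.8% and 24.3% when thinned to 2000 UMIs, in the same order as at 1000. Of the 15 genes most alike, 2 stayed under Spearman correlation, 2 over epithelial classes alone and 0 with classes of at least 5 cells. The club-like class of 15 cells sets the precision of every level in it.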

Other observations

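Of 4 genes reported as receptors for secretoglobins, only Marco and Fpr2 were read in macrophages, and both stood lowest in PPARg-/- tumour. Sdc1 and Lmbr1l were not read there, and no share over all genes was taken in macrophages. Marco, a scavenger receptor of alveolar macrophages reported to bind SCGB3A2, stood at 13.2 CPM in PPARg-/- tumour, 304 in WT tumour and 543 in WT healthy macrophages. Fpr2, a formyl peptide receptor, stood at 34, 225 and 301 CPM in the same order. Both were also called lower in free RNA of PPARg-/- over WT tumour, where the 4 genes had a median log2 ratio of -1.19 beside -0.09 over all genes, of which 10.2% were called and 5.89% were called lower. Different clusters held most macrophages of each library: 1158 of 1316 in PPARg-/- tumour lay in 1, 960 of 1278 in WT tumour in another and 834 of 1007 in WT healthy in the other one, so these levels compare unlike mixtures of macrophages.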
